A study of Mus musculus with 6 samples.

Results

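SINE B2 copies are the subject here: short interspersed elements of the mouse genome that the copy table assigns to the family B2. They were chosen by name alone, by splitting each row name into copy, element, family and class and keeping the family B2. Of the 26255 single copies of transposable elements (TEs) in that table, 2789 are B2 copies. They belong to 5 elements, with 94 copies of B2_Mm1a, 94 of B2_Mm1t, 409 of B2_Mm2, 1469 of B3 and 723 of B3A. The row of each of these 5 elements in a second table, where all copies of an element are counted together, is described beside them. The study compared RNA of mouse embryonic stem cells of the E14 line in which Dot1l had been knocked out by CRISPR/Cas9 (KO, genotype Dot1L-/-, 3 samples) with RNA of wild-type (WT) E14 cells (3 samples), both grown in serum with LIF and labelled day 14. E14 is a male line, and the Dot1l protein methylates histone H3 within its globular core. The labels speak of knock-out cell lines without saying how many, and nothing in the sources used here says whether replicates came from separate clones or cultures, so p-values cover only the spread among these libraries.

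B2 elements descend from a tRNA gene and carry an internal promoter for RNA polymerase III, with a leading unit of about the length of a tRNA and a tail ending in an A-rich stretch. They encode no protein and are copied through the machinery of LINE-1. B2_Mm1a and B2_Mm1t are the young elements, whose copies are nearly alike in sequence, B2_Mm2 is somewhat older, and B3 and B3A are old and more diverged. Many copies lie in introns and untranslated regions of genes and are read as part of the host transcript by RNA polymerase II, so a read on a B2 copy does not by itself tell which polymerase made it. In cells under heat shock, free B2 RNA is known to bind RNA polymerase II. In embryonic stem cells, B2 elements are known as sites of CTCF and of the ChAHP complex of Adnp, Chd4 and HP1 proteins.

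The tables hold the authors' comparison of the genotypes and no values per sample. For each entry the mean is a normalized count averaged over all 6 libraries, and the difference is a log2 ratio given with a standard error (SE). Levels per genotype given below were implied from that mean and fold change, taking the groups as equal in size, and so carry no spread of their own. Which genotype a positive fold change favours is not stated; it was read as higher in KO, since published work describes MERVL, an endogenous retrovirus, as rising without Dot1l, and MERVL-int stands at 1.96 ± 0.38 (SE) in the authors' deposited table. With the opposite sign, all directions below would turn. Dot1l RNA itself had -0.16 ± 0.25 with adjusted p = 0.845 by DESeq2 in the authors' deposited table, which does not settle it. Of 8 stem cell markers tested, 0 passed (1 higher and 0 lower at an unadjusted p under 0.05 by DESeq2, beside 10.6% and 5.55% of all genes). Of the 8 markers of 2-cell-like cells tested, 6 rose; so did 4 of 5 of primitive endoderm and 4 of 6 of fibroblasts, where 5.34% of all genes were called higher and 1.25% lower. The summed implied levels were 26.1 in WT and 1720 in KO for the 2-cell-like list, 175 and 769 for primitive endoderm, and 9694 and 8339 for fibroblasts. Most of the fibroblast sum is Vim, with 8900 in WT and 6382 in KO and adjusted p = 0.333 by DESeq2. Vim was the only member of that list below 0, so the sum does not stand for the list. The part of these cell types in the results on B2 was not tested. In bulk RNA, fewer cells of a type and less RNA per cell cannot be told apart.

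B2 RNA as counted over whole elements did not pass the test for any of the 5 elements, and all 5 fold changes were below 0. In the authors' deposited table, DESeq2 called 0.748% of the 936 element rows with a p at an adjusted p under 0.05. The B2 rows hold 9.41% of all normalized counts of that table, and their implied levels sum to 91628 in WT and 75612 in KO, a log2 ratio of -0.28 where that of the whole table is -0.25.

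B2_Mm1a, a young element, had an implied level of 6224 normalized counts in WT and 3662 in KO. The authors' deposited table gives it a log2 fold change of -0.77 ± 0.60 (SE) with p = 0.203, and a 95% interval from -1.94 to 0.41. That interval runs from a KO level at 0.260 of WT to one at 1.33 of WT. B2_Mm1t, the other young element, had 5595 in WT and 3595 in KO. Its log2 fold change in the authors' deposited table is -0.64 ± 0.45 with p = 0.154, and its interval runs from -1.52 to 0.24. The point estimates put both young elements lower in KO, with intervals that span 0.

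B2_Mm2 had an implied level of 17216 in WT and 13144 in KO, and -0.39 ± 0.23 with p = 0.0974 in the authors' deposited table. B3, the most abundant of the 5, had 41858 in WT and 36739 in KO, and -0.19 ± 0.17 with p = 0.275 in the authors' deposited table. For B3A the levels were 20735 and 18472, and the authors' deposited table gives -0.17 ± 0.19 with p = 0.371. The adjusted p by DESeq2 in the authors' deposited table was 0.996 for each of the 5 rows. All 5 rows fall into 1 of 20 bins of mean count, whose median is the value of B3 itself. Relative to that median B3 is at 0.00 by construction and B3A turns to 0.021, with B2_Mm1a at -0.58, B2_Mm1t at -0.45 and B2_Mm2 at -0.20.

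The order of the 5 fold changes follows the order from young to old, but neighbours in it differ by less than the larger of their SEs. B2_Mm1a and B2_Mm1t lie 0.13 apart and B3 and B3A 0.02 apart. No difference between elements was tested, because the rows come from the same libraries and their covariance cannot be had from the tables.

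The young elements had larger SEs than most rows of like abundance. Among the 52 element rows whose mean is within 2-fold of that of B2_Mm1a, its SE of 0.60 ranked 3 from the highest, and the median of those rows was 0.21. For B2_Mm1t the SE of 0.45 ranked 12 of 54. For a call at the largest p called in that table, the SE of B2_Mm1a would need a 4.45-fold difference and that of B3 a 1.54-fold one.

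Other SINE rows point the same way. Of the 32 SINE rows with a mean of at least 1000, all 32 were below 0 in the authors' deposited table, with a median of -0.18, and none had an unadjusted p under 0.05 by DESeq2, beside 3.31% of all rows that were lower at that level. Of the 103 rows of that abundance outside the SINE class, 82 were below 0, with a median of -0.13. Outside B2, the lowest SINE row was B1_Mm, a young element of the B1 group, at -0.42 ± 0.23 with p = 0.0717 in the authors' deposited table. B1_Mus1 at -0.39 ± 0.25 and B1_Mus2 at -0.37 ± 0.20 lie next to B2_Mm2 in the authors' deposited table. The plot of SINE rows shows this order.

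**Figure D1:**
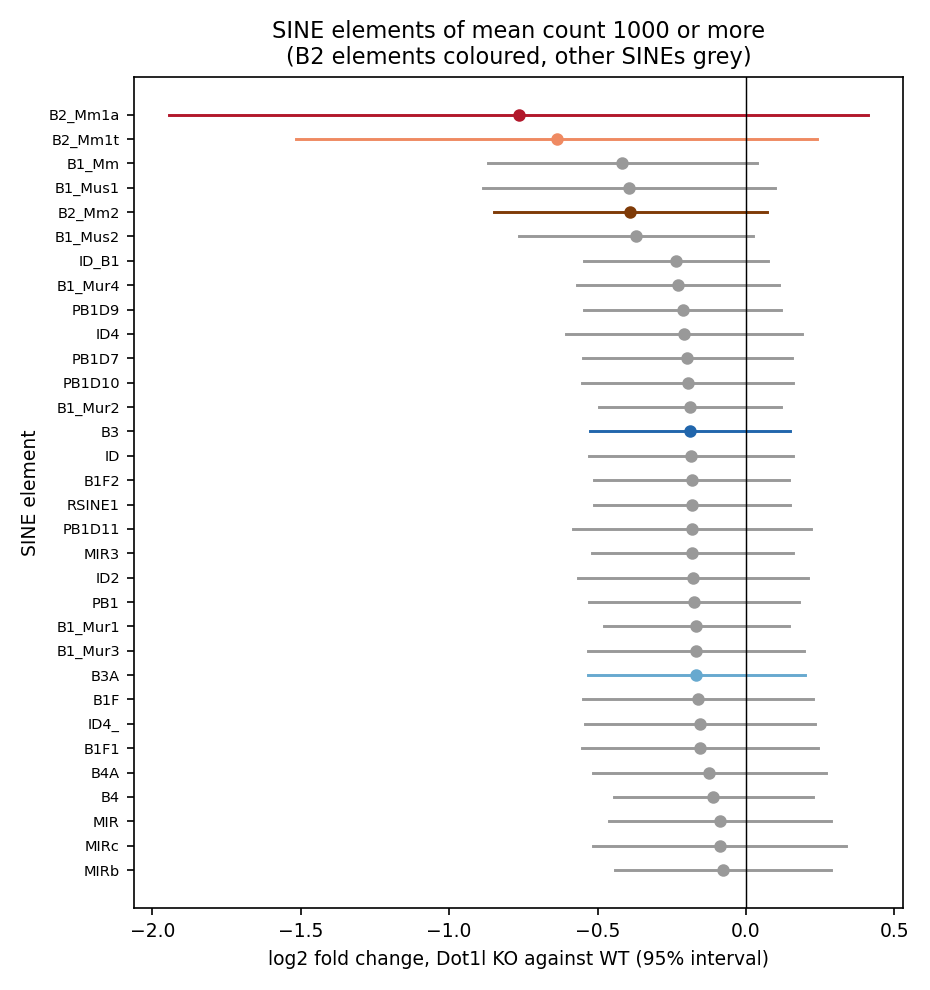
Log2 fold change of KO against WT (x axis) with its 95% interval for the 32 SINE elements of mean count 1000 or more (y axis), from the authors' table; points are estimates, lines are intervals, B2 elements are coloured and other SINEs grey. All 32 points lie below 0, and B2_Mm1a at -0.77 and B2_Mm1t at -0.64 are the lowest, with the widest intervals.

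Single B2 copies were seldom called. At an adjusted p under 0.05 by DESeq2, 1 of the 2787 B2 copies with a p was higher in KO and 1 was lower. Over all copies with a p, 0.878% were called higher and 0.229% lower. At an unadjusted p under 0.05, 12 B2 copies were higher and 29 lower, beside 2.88% and 1.82% of all copies; for B2 these are 0.431% and 1.04%. Both shares for B2 lie below those of the table, and the copies past the unadjusted threshold were more often lower than higher. The same held for the SINE families Alu, B4, ID and MIR, so it is not particular to B2. For Alu the shares higher and lower were 0.593% and 1.15%, and for B4 0.782% and 1.48%. For ID they were 0.198% and 0.593%, and for MIR 0.962% and 1.08%.

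Sparse counts limit what a single copy can show. B2 copies had a median mean of 7.43 normalized counts, from 3.63 to 203, and only 40 of them reached a mean of 50. Their median SE was 1.10 on the log2 scale. With that SE, the largest p called in the copy table corresponds to a 14.1-fold difference, and with the smallest SE of any B2 copy, 0.63, to a log2 difference of 2.17. A smaller observed difference would not have reached that p at the given SE.

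As a description, the fold changes of the copies of an element repeat the order of the element rows. The element rows count these copies too and come from the same libraries, so the shared order is no independent evidence. The median log2 fold change was -0.64 over B2_Mm1a copies, -0.43 over B2_Mm1t, -0.12 over B2_Mm2, -0.04 over B3 and -0.02 over B3A. Over all 2789 B2 copies it was -0.08, and 0.02 over all copies of the table. Of the B2_Mm1a copies, 71 of 94 (75.5%) lay below 0, and of the B2_Mm1t copies 65 of 94 (69.1%), beside 49.1% of all copies. The older elements were near balance, with 52.6% of B3 and 51.2% of B3A copies below 0. Copies share their libraries, and near-identical copies may share reads, since the treatment of multi-mapping reads is unknown, so these shares carry no test.

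The lower values of the young elements lie in the body of the distribution of their copies. This is a description only, since the copies share their libraries and neither element row passed the test. The middle of the B2_Mm1a copies ran from -1.09 (lower quartile) to -0.05 (upper quartile), and that of B2_Mm1t from -1.04 to 0.16. For B3 the quartiles were -0.53 and 0.44, close to -0.54 and 0.56 over the whole table. Copies at least 2-fold lower made up 26.6% of B2_Mm1a, 25.5% of B2_Mm1t, 15.9% of B2_Mm2, 10.9% of B3 and 10.9% of B3A, beside 12.6% of all copies. Copies at least 2-fold higher made up 3.19% of B2_Mm1a and 8.44% of B3, beside 12.3% of all copies.

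**Figure D2:**
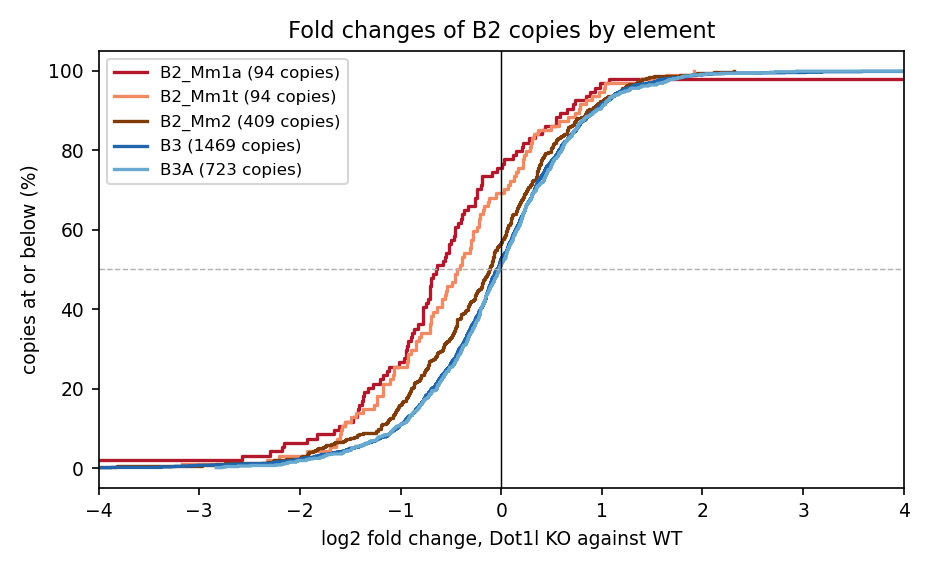
Cumulative share of copies (y axis, %) at or below a log2 fold change of KO against WT (x axis, shown from -4 to 4) for the 5 B2 elements. The curves of B2_Mm1a and B2_Mm1t lie left of the others and cross the dashed line of 50% at -0.64 and -0.43, whereas B3 and B3A cross it near 0.

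Among the 98 elements of all families with at least 50 copies in the table, the median of B2_Mm1a ranked 4 from the lowest and that of B2_Mm1t ranked 5. Those below them, ERVB7_1-LTR_MM, MMETn-int and ETnERV-int, belong to the ERVK family of endogenous retroviruses. B2_Mm2 ranked 16, B3 31 and B3A 42. The B1 elements B1_Mus2 and B1_Mm had medians of -0.19 and the whole Alu family, to which B1 belongs, -0.08. Medians were -0.03 over the 3584 B4 copies, -0.05 over the 507 ID copies and -0.06 over the 832 MIR copies. B2 as a whole was thus close to Alu and slightly below the others, and these differences were not tested.

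The young elements had lower medians than all copies of the same abundance in each class of mean count. Copies with a mean between 7.5 and 15 had a median of -0.78 for B2_Mm1a (37 copies) and -0.70 for B2_Mm1t (35 copies), where all copies of that class had -0.02. Between 15 and 50 the medians were -0.94 for B2_Mm1a (23 copies), -0.25 for B2_Mm1t (18 copies) and -0.31 for B2_Mm2 (56 copies), where all copies had -0.08. Under 7.5 the young elements stood at -0.02 and -0.23, where all copies had 0.11. From 50 upward only 2 and 1 young copies remain, with medians of -0.62 and -0.46, where all copies had -0.31. Only 18 B2_Mm1t copies fill the class from 15 to 50, and 11 of them lay below 0. After subtracting the median of all copies in the same of 20 bins of mean count, the medians were -0.58 for B2_Mm1a, -0.46 for B2_Mm1t, -0.14 for B2_Mm2, -0.08 for B3 and -0.04 for B3A.

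**Figure D3:**
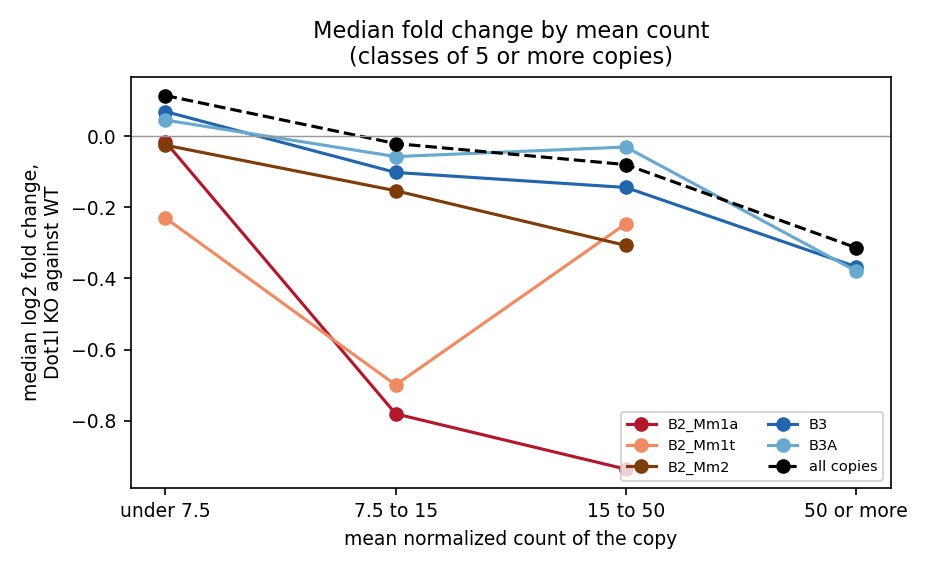
Median log2 fold change of KO against WT (y axis) in classes of the mean normalized count of the copy (x axis) for the 5 B2 elements and for all copies (dashed line); classes of fewer than 5 copies are left out. From 7.5 to 15 the young elements stand at -0.78 and -0.70, apart from all copies at -0.02.

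Summing the implied levels over copies weights them by abundance. The 94 B2_Mm1a copies summed to 1461 normalized counts in WT and 928 in KO, a log2 ratio of -0.66, and -0.67 without the copy of the highest mean. The B2_Mm1t copies summed to 1243 in WT and 933 in KO, a log2 ratio of -0.41. Their most abundant copy, B2_Mm1t_dup11457, alone held 13.6% of the sum, and without it the ratio was still -0.41. The ratio was -0.23 for B2_Mm2, -0.18 for B3 and -0.08 for B3A, and -0.24 over the whole table. None of these ratios has an error, since no values per sample enter them.

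The copies in the table are a small part of each element. Copy names carry a number, and the highest number met was 18132 for B2_Mm1a, 22053 for B2_Mm1t, 89627 for B2_Mm2, 148159 for B3 and 92786 for B3A. Set against it, the table lists 0.518% of B2_Mm1a, 0.426% of B2_Mm1t, 0.456% of B2_Mm2, 0.992% of B3 and 0.779% of B3A copies. Their summed means amount to 24.2% of the element row for B2_Mm1a, 23.7% for B2_Mm1t, 26.3% for B2_Mm2, 41.9% for B3 and 38.9% for B3A. These tables may have been normalized separately, so the shares are approximate. What makes up the rest, copies that are not listed or reads counted per element but not per copy, was not tested. The lowest mean listed in the copy table was 3.61.

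Both called copies had a genotype with no reads by its implied level, so their fitted fold changes depend on the fit and are no bound. B2_Mm2_dup26269 was the copy called lower. It had 43.8 normalized counts in WT and none in KO by its implied level. KO was set to a floor of 3 reads over the group, taken as 1 normalized count per library. Against that floor it was 43.8-fold lower, a log2 value of -5.45. Its SE of 3.91 belongs to the fitted value with an empty group, so the floor value has no error of its own. The size of the fall is thus not established. Its adjusted p by DESeq2 was 0.000106 in the authors' deposited table, and its fitted log2 fold change -21.33 ± 3.91. Of the 290 copies called in the whole table, 2 have such a fitted value past 20 in size.

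B3_dup31701 was the copy that rose, with no reads in WT by its implied level and 15.3 normalized counts in KO. Against the same floor it was 15.3-fold higher, a log2 value of 3.94, and its SE again belongs to the fitted value. Its fitted log2 fold change was 6.34 ± 1.56 with adjusted p = 0.00734 by DESeq2 in the authors' deposited table. Both folds at the floor leave out the error of the other group, so neither is a firm lower bound.

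The copy with the next number, B3_dup31700, moved beside B3_dup31701. It had 0.364 in WT and 12.2 in KO, with 5.06 ± 1.54 and adjusted p = 0.0810 by DESeq2 in the authors' deposited table, which does not pass. Among 372 pairs of B2 copies of one element with consecutive numbers, 60.8% had fold changes of the same sign. It was 53.4% of 178 pairs whose numbers differ by 2, and 51.2% of 2651 pairs whose numbers lie 21 to 100 apart. Over all elements of the table the share was 61.4% of 2768 consecutive pairs and 59.4% of pairs 21 to 100 apart. What the numbers order is unknown, so consecutive copies are not read as neighbours in the genome, and this is given as a description.

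Further B2 copies had a genotype without reads. Among all 2789, the implied level was that of no reads in WT for 3 copies and in KO for 4, beside 138 and 21 of all 26255 copies. The young B2_Mm1a contributed 3 of these 7. B2_Mm1a_dup4161 had 32.0 normalized counts in WT and none in KO, with p = 0.0519 in the authors' deposited table. B2_Mm1a_dup2713 had 16.4 in WT and none in KO, and B2_Mm1a_dup9344 none in WT and 11.1 in KO, with p of 0.0894 and 0.133 in the authors' deposited table. B3A_dup60372 had none in WT and 10.1 in KO. These copies had an SE of 3.91 and none passed.

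The authors' deposited table gives no p for 2 copies, both of B3. B3_dup48540, the most abundant B2 copy, had 209 in WT and 197 in KO, and its log2 fold change was -0.08 ± 1.05 in the authors' deposited table. B3_dup99476 had 290 in WT and none in KO by its implied levels. Its fitted log2 fold change was -23.46 ± 3.91 in the authors' deposited table, a value that depends on the fit. Why the p is missing is not stated, and values per library are not given. The level of 290 may thus not be shared by the WT libraries, and this copy is not read as a fall. Without these 2 copies the log2 ratio of summed B3 levels was -0.16 instead of -0.18.

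The 29 copies lower at an unadjusted p under 0.05 by DESeq2 had a median mean of 11.2 and median levels of 18.1 in WT and 3.19 in KO. The 12 higher ones had a median mean of 6.31 and median levels of 1.33 in WT and 11.3 in KO. Over all copies of the table the lower ones also had the higher median mean, 15.1 beside 9.69. By element, the lower B2 copies were 1 of B2_Mm1a, 1 of B2_Mm1t, 5 of B2_Mm2, 18 of B3 and 4 of B3A. The higher B2 copies were 10 of B3 and 2 of B3A, and none belonged to B2_Mm1a, B2_Mm1t or B2_Mm2. None of those named in the next sentences passed the adjusted test. B3_dup138798 had 28.3 in WT and 3.85 in KO, with -2.88 ± 0.87 and adjusted p = 0.0738 by DESeq2 in the authors' deposited table. B3_dup9117 had 44.9 in WT and 5.00 in KO. In the other direction, B3_dup58555 had 0.642 in WT and 10.4 in KO, a level of only a few reads in WT, so no fold is given.

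For each young element, the copy with the smallest p was lower in KO by its point estimate. B2_Mm1a_dup12178 had 24.3 in WT and 4.96 in KO, with -2.29 ± 1.16 and p = 0.0474 in the authors' deposited table. B2_Mm1t_dup4548 had 16.5 in WT and 3.29 in KO, with -2.33 ± 1.03 and p = 0.0233 in the authors' deposited table. Their adjusted p by DESeq2 in the authors' deposited table was 1.00 and 0.717. For B3A the smallest p belonged to B3A_dup72851, with 1.68 in WT and 12.8 in KO and adjusted p = 0.431 by DESeq2 in the authors' deposited table.

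**Figure D4:**
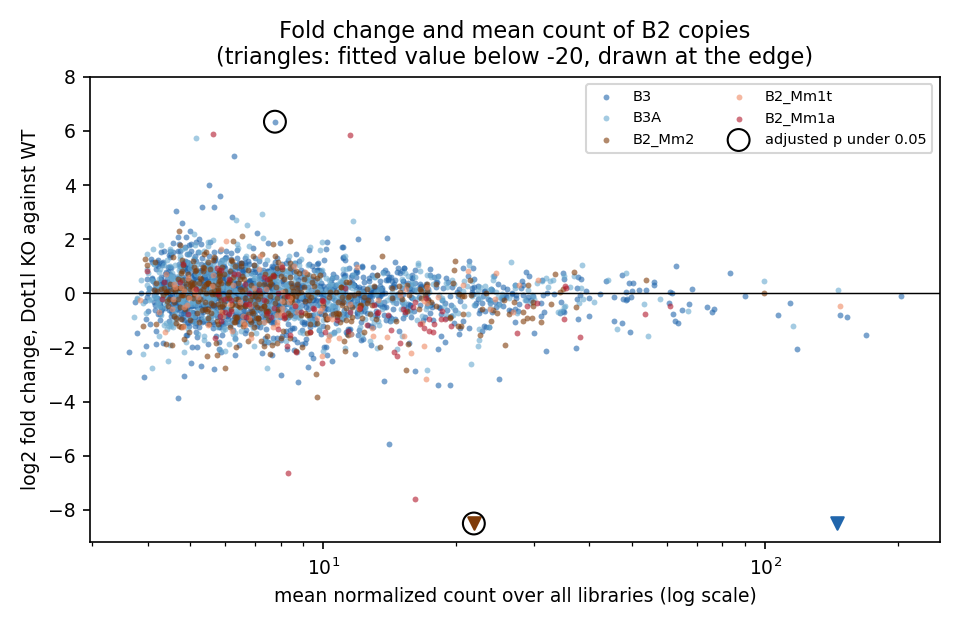
Log2 fold change of KO against WT (y axis) against mean normalized count over all libraries (x axis, log scale) for the 2789 B2 copies, coloured by element; circles mark the 2 copies with an adjusted p under 0.05, and triangles at the lower edge mark the 2 copies whose fitted value lies below -20. Most copies lie under a mean of 50, and the 40 above it have a median of -0.38.

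Abundant copies give the most precise values. Of the 40 with a mean of at least 50, 38 have a p, and none of these was called, beside 4.45% of all copies of that abundance that have a p. Their smallest unadjusted p was 0.0423 by DESeq2, and 1 passed 0.05 without adjustment. Of the 40, 26 lay below 0, with a median of -0.38, beside 652 of 1026 copies and a median of -0.31 in the whole table. Of these, 28 were B3 copies, 7 B3A, 2 B2_Mm2, 2 B2_Mm1a and 1 B2_Mm1t.

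Among the young elements, B2_Mm1t_dup11457 was the most abundant copy, with 171 in WT and 124 in KO and -0.46 ± 0.66 in the authors' deposited table. For B2_Mm1a the top copy, B2_Mm1a_dup4206, had 70.6 in WT and 51.3 in KO and -0.46 ± 0.76 in the authors' deposited table. B2_Mm1a_dup16746 had 67.3 in WT and 39.3 in KO, and B2_Mm1a_dup734 had 57.4 and 18.8. Against these, B2_Mm1a_dup3901 had 32.7 in WT and 38.0 in KO, B2_Mm1t_dup5737 had 25.5 and 35.8, and B2_Mm1t_dup20141 had 24.6 and 30.9. B2_Mm1t_dup1719 had 33.3 in WT and 20.4 in KO. Of these 8 copies, the 4 highest means of each young element, 5 were lower and 3 higher in KO by their point estimates.

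B2_Mm2_dup59184, the most abundant copy of its element, had 98.9 in WT and 99.5 in KO, and 0.01 ± 0.77 in the authors' deposited table. For B3A the top copy, B3A_dup12991, had 139 in WT and 153 in KO, and 0.14 ± 0.68 in the authors' deposited table. B3_dup18469 had the lowest KO level relative to WT among abundant B3 copies with a p, with 190 in WT and 45.9 in KO and -2.05 ± 1.01 (p = 0.0423) in the authors' deposited table. B3_dup18468, which carries the number before it, had 136 and 77.8. B3_dup121793 had 251 in WT and 87.7 in KO, with -1.52 ± 0.85 and p = 0.0733 in the authors' deposited table.

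**Figure D5:**
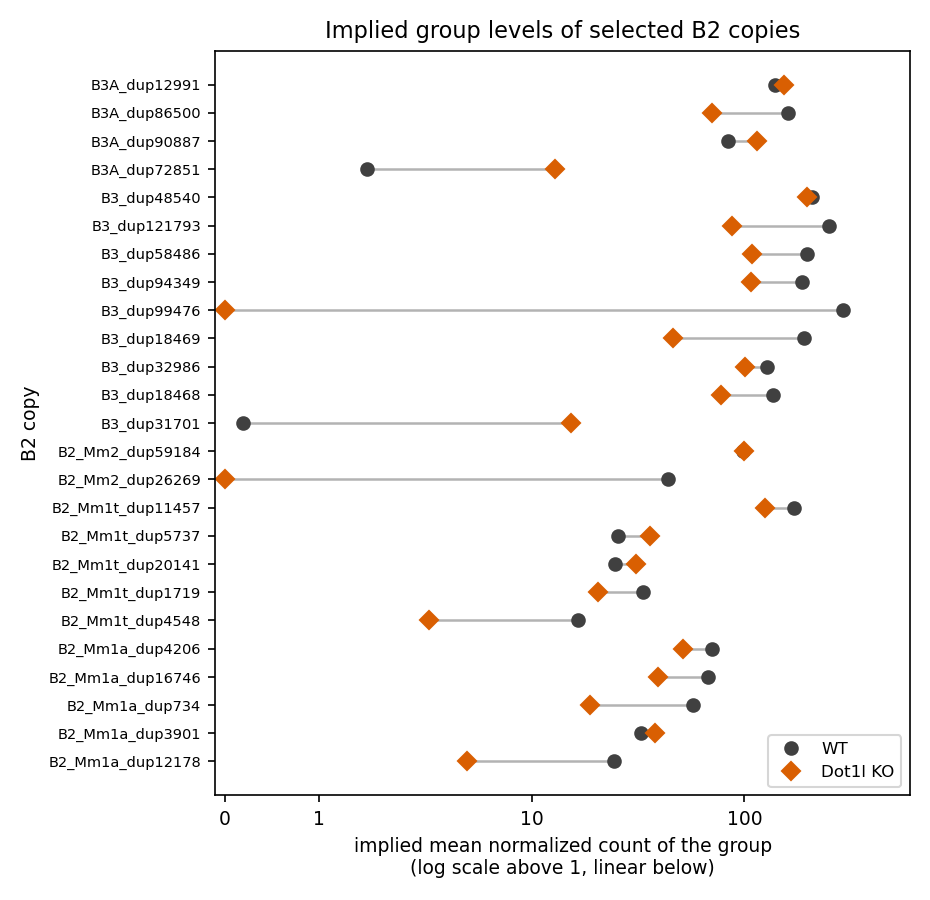
Implied mean normalized count (x axis, log scale above 1 and linear below) in WT (dark circles) and KO (orange diamonds) for selected B2 copies (y axis): the most abundant ones and the copy of each element with the smallest p. B2_Mm2_dup59184 is nearly level at 98.9 and 99.5, and B3A_dup90887 is higher in KO at 83.6 and 115. B3_dup18469 is lower in KO at 190 and 45.9. B3_dup99476, which has no p, has none in KO by its implied level.

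The 3 lists of genes below cover the transcription of B2 elements, chromatin factors at SINEs and proteins that bind SINE RNA or act on it. In each list 1 gene passed the test, and the counts were the same at an unadjusted p under 0.05 by DESeq2. The lists are short, so these counts are not read as a result about them. The list of RNA polymerase III subunits and factors had 25 tested genes, of which 0 rose and 1 fell, with a median log2 fold change of -0.16 beside -0.02 over all genes. Over all genes 5.34% were called higher and 1.25% lower, and 10.6% and 5.55% without adjustment, which holds as background for each of the lists. The one that fell was Polr3gl, one of a pair of alternative subunits of the enzyme. Polr3gl had 1045 normalized counts in WT and 434 in KO, and -1.27 ± 0.31 with adjusted p = 0.00135 by DESeq2 in the authors' deposited table. Its partner Polr3g, the form known from stem cells, had 2920 and 3391, and 0.22 ± 0.25 with adjusted p = 0.763 by DESeq2 in the authors' deposited table. Polr1d, a subunit shared with RNA polymerase I, had -0.69 ± 0.38 with adjusted p = 0.355 by DESeq2 in the authors' deposited table.

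Chromatin factors known from SINEs, with ChAHP, HP1, CTCF, histone and DNA methyltransferases, had 19 tested genes, of which 1 rose and 0 fell, with a median of -0.07. That count is near the 5.34% of all genes called higher. The one that rose was Dnmt3a, a de novo DNA methyltransferase, at 0.85 ± 0.24 with adjusted p = 0.00822 by DESeq2 in the authors' deposited table. Ehmt2, a methyltransferase of lysine 9 of histone H3, had -0.57 ± 0.31 with adjusted p = 0.354 by DESeq2 in the authors' deposited table. Adnp had 81.2 in WT and 129 in KO and Chd4 22346 and 19603, and neither passed.

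The list of proteins that bind SINE RNA or act on it, such as those of the signal recognition particle, had 12 tested genes, of which 0 rose and 1 fell, with a median of 0.06, beside 5.34% and 1.25% of all genes. Mov10, an RNA helicase that restrains retrotransposition, fell. It had 9501 in WT and 3810 in KO, and -1.32 ± 0.28 with adjusted p = 0.000213 by DESeq2 in the authors' deposited table. Srp68, a protein of the signal recognition particle, had -0.33 ± 0.23 with adjusted p = 0.524 by DESeq2 in the authors' deposited table.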

How the data were processed

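Total RNA of 6 samples was sequenced. Per the submitters' processing notes, the authors used HISAT2 2.1.0, mm10, featureCounts 2.0.0 and DESeq2; strand, reads that map to several places, filters and the model are not given in these sources. Per the file headers, the mean is a signal: read counts over size factors, averaged by the authors. Differences are log2 ratios with an SE, per the file headers. A score, the Wald statistic deposited by the authors, equals log2 ratio over SE. Each p-value is from that Wald test, per the file headers, with Benjamini-Hochberg adjustment; recomputing it over each table gave the same values. Depth per sample is unknown, so no counting interval was made.

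The planned edgeR fit needs counts per sample, so the authors' test was used at an adjusted p under 0.05, with Python 3.11.15, pandas 2.3.3 and scipy 1.17.1. A group with an implied level under 0.25 was taken as without reads. The calling step was tested on simulated data: in the simulated copy table of 26255 entries, 182 of 200 entries given a log2 change of 6 were recovered, with 9 false calls. The noise was normal with the deposited SEs, and no smaller change was planted. The simulation thus checks the calling step only, and says nothing of smaller changes or of groups without reads. Named copies are called copies with a mean of at least 10 (up to 8 each way), and per element the smallest p and highest mean; other copies, and Polr3g, Adnp and Chd4, were named after values were seen, as were the classes of mean count, the numbers in copy names and the floor. The 2 smallest p of each gene list are named. Members and lists were chosen with earlier results of these data known. Alternatives were a threshold of 0.01, a minimum log2 fold change of 1, both centrings, a mean of at least 50, Bonferroni adjustment and a scaled Wald statistic. Copy sequences and positions are not analysed here.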

Additional observations from a re-analysis of the deposited data

How the results depend on the processing

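No paired analysis was possible because the tables hold no values per sample, and for the same reason leaving out replicates, edgeR and DESeq2 refits were not run. No B2 element row passed under any alternative; centring within bins of mean count gives B3 0.00 and B3A 0.021, but B3 is itself the median of their bin, so this says nothing of their sign. The counts of called B2 copies (1 higher, 1 lower) became 0 and 0 at a mean of at least 50, where neither called copy is tested, 0 and 1 under Bonferroni adjustment, 0 and 0 with groups without reads at the floor (a lost call fixed for B2_Mm2_dup26269 by the SE of its fitted value, and so no test of it), and 6 and 6 with the Wald statistic divided by 0.76, its spread over the table. Scaled that way, B3 had 5 higher and 5 lower, B3A 1 higher and B2_Mm2 1 lower. B3 higher and B2_Mm2 lower were 0 at a mean of at least 50 and at the floor, and B3 higher was 0 under Bonferroni. At a mean of at least 50 the median log2 fold change was -0.38 over B2, -0.37 over B3, -0.38 over B3A and, over 2 copies, 0.25 for B2_Mm2, a change of sign. At a mean of at least 10, added after seeing the data, it was -0.93 for B2_Mm1a, -0.54 for B2_Mm1t and -0.36 for B2_Mm2. B2_Mm2_dup59184, at 0.01, became -0.0077 when centred on the table median. The polymerase III fall was 0 under Bonferroni and with the scaled statistic, the Dnmt3a rise 0 under both and at a log2 fold change of at least 1, and the Mov10 fall 0 under Bonferroni. For genes the statistic was scaled by its spread over all genes, so the 0.76 holds for copies only. Means of a few reads per library limit single copies.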
